A study of Homo sapiens with 6 samples.

Results

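The genes described here are 10 core components of the Notch pathway: the receptors NOTCH1, NOTCH2 and NOTCH3, the ligands JAG1, JAG2, DLL1 and DLL3, and the nuclear factors HES1, HES6 and HEY1. They were chosen by name, as the rows of the count tables that carry these symbols, and all 10 were found among 19923 protein-coding genes. The material was poly(A) RNA, sequenced from Kelly cells, an established human neuroblastoma line with amplified MYCN whose genotype the labels give as WT. Both groups received an siRNA by transient transfection and were collected after 72 hours. The siControl group (3 libraries) received a control siRNA, and the siMETTL3 group (3 libraries) received an siRNA against METTL3, the catalytic subunit of the enzyme that writes N6-methyladenosine (m6A) into mRNA. The file headers call the siMETTL3 inputs siMettl3B, and the labels do not explain the last letter. The labels give no siRNA sequence, and they do not say whether the 3 libraries of a group came from separate cultures, so p-values measure the spread between these libraries, which may be technical.

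Notch receptors are single-pass membrane proteins that are activated by ligands of the Jagged and Delta-like families on a neighbouring cell. Ligand pulling exposes the receptor to the protease ADAM10 and then to gamma-secretase, which frees the intracellular domain to enter the nucleus, bind the DNA-binding protein RBPJ and switch on target genes, among them members of the HES and HEY families of repressors. In the developing nervous system, including the sympathetic lineage from which neuroblastoma arises, this pathway holds progenitors back from becoming neurons.

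Total counts ranged from 15430000 to 21565013 per library, and the shallowest library, siControl replicate 3, also lay farthest from the others on the first principal component. The targeted gene METTL3 fell from 54.2 ± 1.80 to 33.04 ± 1.27 CPM (SD, n = 3, edgeR FDR 4.68e-06), so 61.0% of the control level remained in siMETTL3, a partial depletion at the RNA level. The METTL3 span shares 7.9% of its length with TOX4 on the other strand, and the counting set no strand option. TOX4 itself fell from 49.7 ± 3.05 to 43.4 ± 1.39 CPM (edgeR FDR 0.0431). How many of the METTL3 reads belong to TOX4 was not tested. CPM stands for counts per 1e6 counts of the library, after TMM scaling of the library sizes. The 10 markers of the sympathetic neuroblast summed to 4066 to 4434 CPM in siControl and to 5402 to 5778 CPM in siMETTL3. Of these, 6 rose, TH among them, and 2 fell, ISL1 (edgeR FDR 6.06e-08) and CHGB (edgeR FDR 2.42e-05). The 10 mesenchymal markers, mostly TWIST1, PDGFRB and THY1, summed to 251 to 258 CPM in siControl and to 225 to 236 CPM in siMETTL3. Of 7 tested, TWIST1 fell (edgeR FDR 0.00239), and COL1A1 and PRRX1 rose (edgeR FDR 0.0200 and 0.0103) from siControl means of 2.96 and 2.86 CPM. Schwann cell markers summed to 5.38 to 6.01 and 6.52 to 8.65 CPM, blood cell markers to 2.06 to 2.97 and 1.80 to 2.19 CPM, and epithelial and endothelial markers to 11.5 to 12.9 and 15.0 to 15.3 CPM. Several of these sums moved with the group, and their part in the results below was not tested. In bulk RNA, fewer cells of a type and less RNA per cell cannot be told apart. The fibroblast markers COL1A2, DCN and LUM and the blood cell markers CD3E and PTPRC were at or near 0. Across all genes, 37.8% of the 15311 tested differed between the groups in edgeR's quasi-likelihood test at an adjusted p-value (FDR) under 0.05. Of all tested genes, 18.6% were called higher and 19.2% lower in siMETTL3.

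Of the 10 Notch genes, 9 passed the filter on low counts and 3 of these 9 were called (33.3%, against 37.8% of all tested genes). NOTCH3 and HES6 fell and HEY1 rose in siMETTL3. The share is near that of the whole transcriptome, so it is no property of these genes as a set, and their median log2 fold change, below called log2 change, was -0.103 (-0.0021 over all tested genes). The called genes were the receptor NOTCH3 and the nuclear factors HES6 and HEY1, and they did not move in 1 direction. The same 3 genes were those whose groups did not overlap, among 49.9% of all tested genes with that pattern. Without siControl replicate 3 all 3 kept their call, with log2 changes of -0.98 for NOTCH3, -0.48 for HES6 and 0.75 for HEY1.

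**Figure D1:**
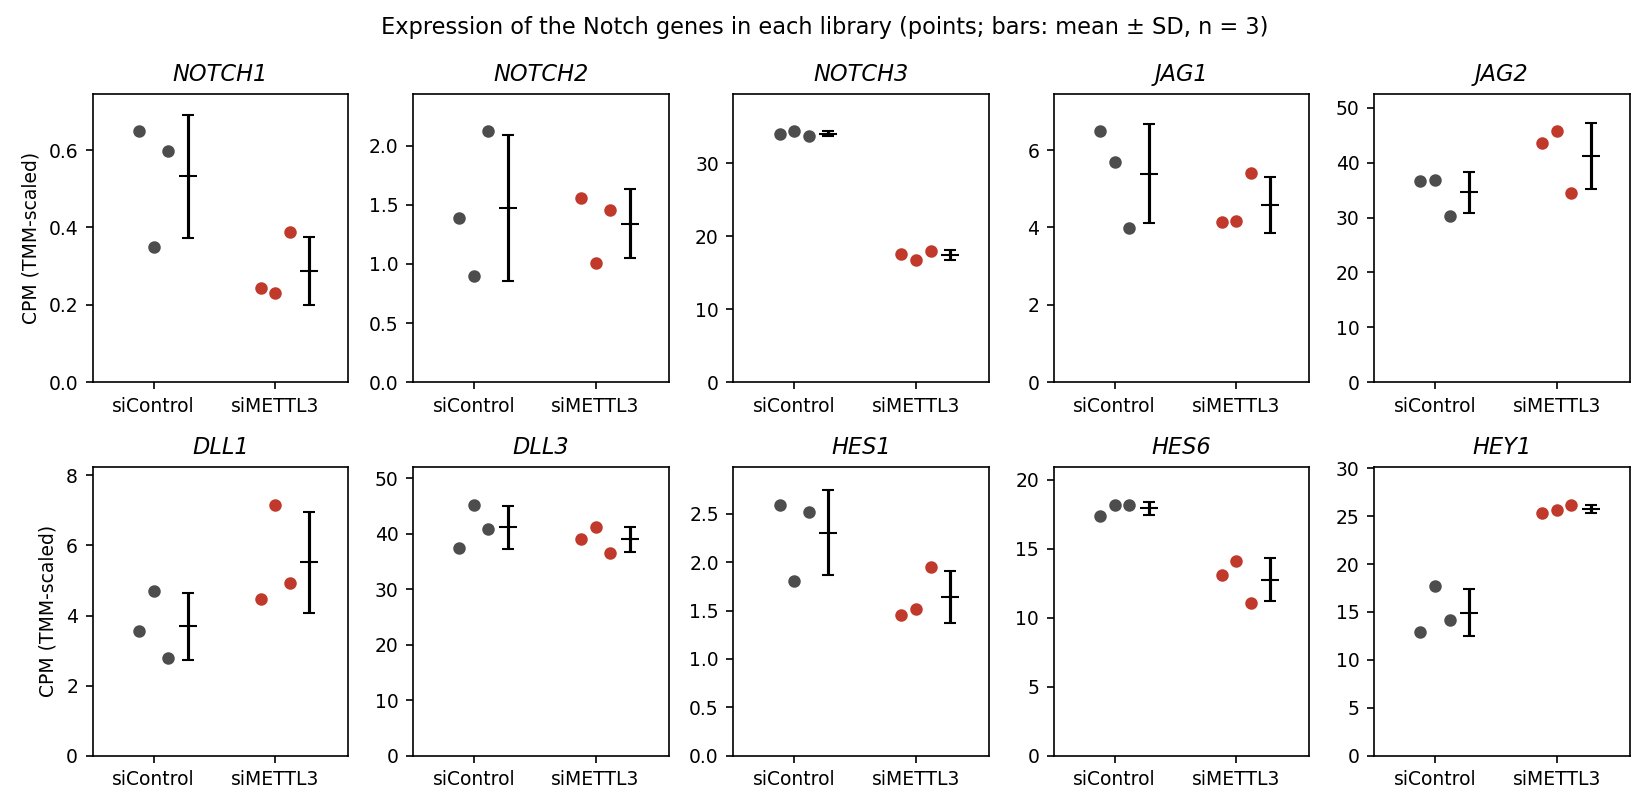
Expression of the 10 Notch genes in CPM (vertical axis, own scale per gene, starting at 0) in the 3 siControl libraries (grey) and the 3 siMETTL3 libraries (red), with mean ± SD beside the points. The groups are apart without overlap for NOTCH3, HES6 and HEY1, and overlap for the other 7 genes.

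Levels were compared between genes as CPM per kilobase of the canonical mRNA. Counts covered whole gene spans, so any intron reads add to a level without adding to the length. How far this shifts the order was not tested. In siControl, DLL3 was the most abundant of the 10 at 20.6 ± 1.94 CPM per kilobase (SD, n = 3). HES6 followed at 13.1 ± 0.334 CPM per kilobase. Next came HEY1 at 6.80 ± 1.14 and JAG2 at 6.00 ± 0.642 CPM per kilobase, which overlapped each other. NOTCH3, at 3.93 ± 0.0376 CPM per kilobase, was the leading receptor. HES1 (1.46 ± 0.279), DLL1 (0.976 ± 0.255) and JAG1 (0.908 ± 0.216 CPM per kilobase) formed a lower tier in which neighbours overlapped. NOTCH2 (0.129 ± 0.0539) and NOTCH1 (0.0556 ± 0.0167 CPM per kilobase) were lowest. NOTCH3 thus made up between 94.0% and 97.2% of the summed per-kilobase level of the 3 receptors in the siControl libraries, and between 92.5% and 94.5% in the siMETTL3 libraries. Reads that NOTCH2 may have lost to its partial copies, described below, are not counted in this share. The receptor NOTCH4, which is not among the 10 genes, is left out of the sum as well. Its level was 0.562 ± 0.0864 CPM per kilobase in siControl and 0.412 ± 0.128 in siMETTL3, above NOTCH2 and NOTCH1. The share of NOTCH3 among all receptors is therefore lower than given here.

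The order in siMETTL3 differed at 2 places. HEY1 stood above HES6, with 11.7 ± 0.201 against 9.33 ± 1.14 CPM per kilobase. DLL1 stood above HES1, with 1.46 ± 0.382 against 1.04 ± 0.170 CPM per kilobase, and the values of DLL1 and HES1 overlapped. The DLL1 level in both groups may include reads of the overlapping gene FAM120B, described below, and their part was not tested. The ratio of HEY1 to HES6 per kilobase was 0.462, 0.607 and 0.486 in siControl, and it was 1.20, 1.13 and 1.48 in siMETTL3. HES6 therefore exceeded HEY1 in every siControl library and HEY1 exceeded HES6 in every siMETTL3 library. This pair was chosen after the values were seen, and the ratio is given without a test.

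**Figure D2:**
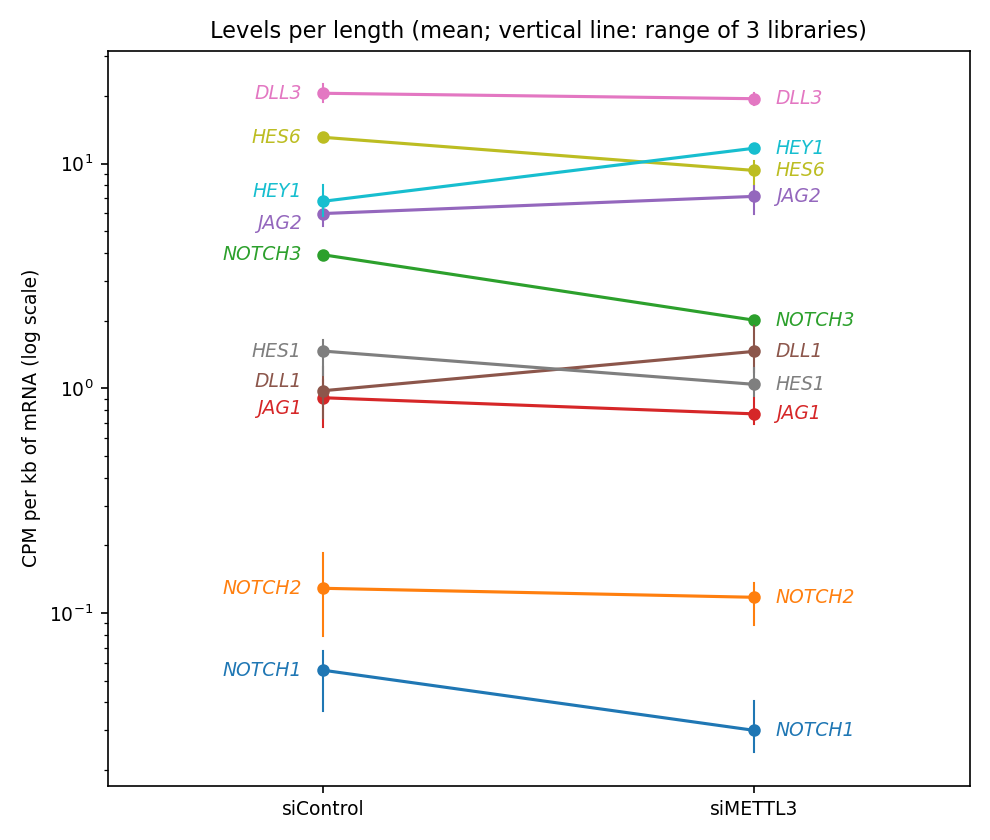
Mean level of each Notch gene in CPM per kilobase of mRNA (log axis) in siControl (left) and siMETTL3 (right), with a vertical line for the range of the 3 libraries. DLL3 is highest and NOTCH1 lowest in both groups, and the lines of HEY1 and HES6 cross.

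Among the receptors, NOTCH3 (chromosome 19, 15159038 to 15200995, minus strand) showed the largest change of the 10 genes. NOTCH3 is the receptor best known from smooth muscle cells and pericytes. It was measured at 34.1, 34.4 and 33.8 CPM in siControl and at 17.6, 16.7 and 18.0 CPM in siMETTL3. The libraries within each group lay close together and the groups were far apart. NOTCH3 thus fell, with a log2 change of -0.97 and a standard error (SE) of 0.081 (95% interval -1.14 to -0.79, edgeR FDR 1.32e-06), which leaves 51.1% of the control level. In size this change exceeded that of 96.1% of all tested genes when the sign is disregarded.

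NOTCH2 (chromosome 1, 119911553 to 120100779, minus strand) was rare. Its CPM values were 1.39, 0.901 and 2.12 in siControl and 1.56, 1.01 and 1.46 in siMETTL3, and the groups overlapped throughout. The log2 change of NOTCH2 was -0.10 with a 95% interval of -0.86 to 0.65 (edgeR FDR 0.849), an interval that includes changes of over 1.5 times in either direction. Its sign turned without siControl replicate 3 (log2 change 0.21) and without siMETTL3 replicate 2 (0.065). NOTCH2 has partial copies in the genome, NOTCH2NLA, NOTCH2NLB and NOTCH2NLC, that are nearly identical to its start. Reads from these copies and from NOTCH2 may have been split between them, and NOTCH2NLA alone had 105 to 254 reads per library against 18 to 32 for NOTCH2. The NOTCH2NLA span overlaps NBPF10, so some of these reads may belong to that gene. NOTCH2NLC, with 2 to 16 reads per library, was called lower (log2 change -2.10, edgeR FDR 0.00969). NOTCH2NLA and NOTCH2NLB were not past the threshold (edgeR FDR 0.890 and 0.713).

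NOTCH1 (chromosome 9, 136494433 to 136546048, minus strand), the receptor known for its role in T-cell leukaemia, was close to the detection limit. It had 14, 7 and 9 reads in siControl, and 5, 5 and 8 in siMETTL3. It did not pass the filter and was not tested in the main analysis. Without a filter its log2 change was -0.88 with a 95% interval of -2.21 to 0.45 (edgeR FDR 0.339). The fourth receptor, NOTCH4, which is no member of the set, was low as well, at 3.79 ± 0.583 CPM in siControl and 2.78 ± 0.865 CPM in siMETTL3, and was not past the threshold (a log2 change of -0.44, edgeR FDR 0.174). Its span overlaps GPSM3.

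None of the 4 ligands passed the threshold in the main edgeR fit, where 2 of them, JAG2 and DLL1, had an unadjusted p under 0.05. DESeq2 and limma-voom called 0 of the 4 as well. With a block for the replicate number, which the labels do not explain, JAG2 and DLL1 passed it (edgeR FDR 0.0143 and 0.0227). DLL3, a divergent Delta-like protein that does not activate Notch in trans and is known as an inhibitor acting within the same cell, was the most abundant. DLL3 (chromosome 19, 39498895 to 39508481, plus strand) was measured at 37.5, 45.2 and 40.9 CPM in siControl and at 39.1, 41.2 and 36.6 CPM in siMETTL3. These values interleave. The difference between the groups came to a log2 change of -0.080, SE 0.084 (95% interval -0.26 to 0.10, edgeR FDR 0.492), an interval that leaves out a 2-fold change in either direction.

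JAG2 (chromosome 14, 105140982 to 105168824, minus strand), a Jagged ligand, was measured at 36.7, 36.8 and 30.3 CPM in siControl and at 43.6, 45.7 and 34.4 CPM in siMETTL3. The siMETTL3 replicate 3 value lay among the siControl values and the other 2 siMETTL3 libraries lay above them. For JAG2 the log2 change was 0.25, SE 0.11 (edgeR FDR 0.0935). Without siMETTL3 replicate 3 it was 0.36 and past the threshold (edgeR FDR 0.0188), and without siMETTL3 replicate 2 it was 0.17 (edgeR FDR 0.339).

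DLL1, a Delta-like ligand of neural progenitors (chromosome 6, 170282206 to 170306565, minus strand), was measured at 3.57, 4.70 and 2.79 CPM in siControl and at 4.47, 7.17 and 4.92 CPM in siMETTL3. The fitted log2 change was 0.57, SE 0.23 (95% interval 0.078 to 1.06, edgeR FDR 0.0646). Without siControl replicate 2, the highest of its group, it was 0.78 and past the threshold (edgeR FDR 0.0388), and without siMETTL3 replicate 2, the highest of the other group, it was 0.33 (edgeR FDR 0.333). The DLL1 span shares 65.1% of its length with FAM120B on the other strand, and the counting set no strand option. FAM120B was more abundant and itself rose (135 ± 3.40 to 158 ± 1.09 CPM, log2 change 0.22, edgeR FDR 0.00492). How many of the DLL1 reads belong to FAM120B was not tested.

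JAG1 (chromosome 20, 10637684 to 10673999, minus strand), the ligand mutated in Alagille syndrome, was measured at 6.49, 5.71 and 3.98 CPM in siControl and at 4.13, 4.18 and 5.41 CPM in siMETTL3. The lowest of the 6 values belonged to a siControl library, so the groups overlapped. The log2 change of JAG1 was -0.26 with a 95% interval of -0.68 to 0.17 (edgeR FDR 0.339). It was -0.10 without siControl replicate 1, and -0.42 (edgeR FDR 0.0709) without siControl replicate 3.

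**Figure D3:**
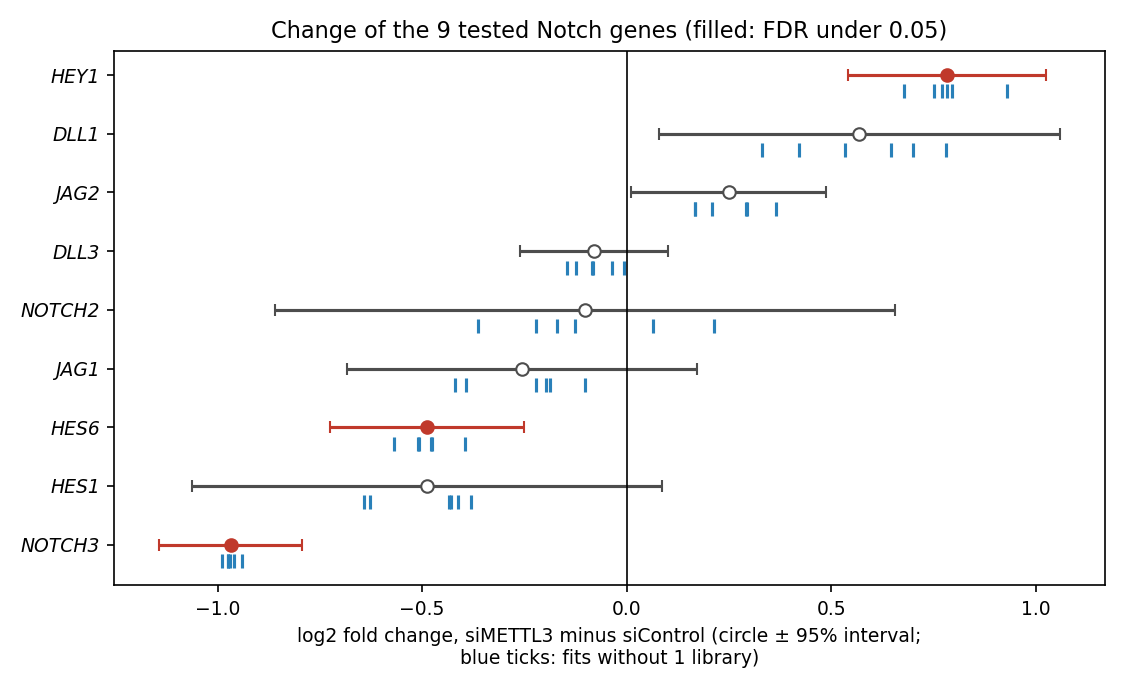
Log2 change of the 9 tested Notch genes (horizontal axis, siMETTL3 minus siControl) as circles with 95% intervals, filled and red where the FDR was under 0.05, and blue ticks for the fits that each left out 1 library. NOTCH3, HES6 and HEY1 keep their sign in all 6 such fits, and NOTCH2 changes sign in 2.

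Among the nuclear factors, HEY1 (chromosome 8, 79764010 to 79767857, minus strand), a basic helix-loop-helix repressor and a direct target of Notch in many tissues, rose. It was measured at 12.9, 17.7 and 14.2 CPM in siControl and at 25.3, 25.7 and 26.2 CPM in siMETTL3. All siMETTL3 values lay above all siControl values and were tightly grouped. This is a log2 change of 0.78, SE 0.11 (95% interval 0.54 to 1.03, edgeR FDR 0.000122), a level 1.72 times that of the control.

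HES6 (chromosome 2, 238238267 to 238240662, minus strand) fell. HES6 is an atypical member of its family that counteracts HES1 and promotes neuronal differentiation. It was measured at 17.4, 18.2 and 18.2 CPM in siControl and at 13.1, 14.1 and 11.1 CPM in siMETTL3. The groups did not overlap. HES6 had a log2 change of -0.49, SE 0.11 (95% interval -0.73 to -0.25, edgeR FDR 0.00346), which leaves 71.3% of the control level.

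HES1 (chromosome 3, 194136148 to 194138732, plus strand), the classical Notch target that keeps neural progenitors undifferentiated, was low, with 30 to 56 reads per library. Its CPM values were 2.60, 1.80 and 2.52 in siControl and 1.46, 1.52 and 1.95 in siMETTL3. The lowest siControl value lay below the highest siMETTL3 value. The estimate for HES1, a log2 change of -0.49, was as large as that of HES6, but its SE was 0.27 (95% interval -1.06 to 0.087, edgeR FDR 0.171). A fall as large as that of HES6 lies within this interval and so does no change.

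The promoters of these factors were read to show how the family differs at the sequence level. RefSeq windows (GRCh38.p14) from 250 bases before to 50 bases after the start were found for 7 of the 10 genes. DLL1, DLL3 and HEY1 had no entry. The windows of HES6 and NOTCH2 lie inside the gene spans given above, and other starts of these genes were not searched. The windows of HES1, where RBPJ sites are well known, and of the 2 genes that fell, HES6 and NOTCH3, are printed 5′ to 3′ on the strand of the gene. Capitals mark matches to TGGGAA, the core of the RBPJ site, searched on both strands.
HES1, chr3:194135898-194136197, plus strand: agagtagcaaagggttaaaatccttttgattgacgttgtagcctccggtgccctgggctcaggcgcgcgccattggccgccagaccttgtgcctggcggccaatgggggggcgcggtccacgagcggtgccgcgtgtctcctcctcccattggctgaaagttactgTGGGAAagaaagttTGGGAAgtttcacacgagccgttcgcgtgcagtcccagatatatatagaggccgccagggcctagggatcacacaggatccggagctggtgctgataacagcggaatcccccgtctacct
HES6, chr2:238239989-238240288, minus strand: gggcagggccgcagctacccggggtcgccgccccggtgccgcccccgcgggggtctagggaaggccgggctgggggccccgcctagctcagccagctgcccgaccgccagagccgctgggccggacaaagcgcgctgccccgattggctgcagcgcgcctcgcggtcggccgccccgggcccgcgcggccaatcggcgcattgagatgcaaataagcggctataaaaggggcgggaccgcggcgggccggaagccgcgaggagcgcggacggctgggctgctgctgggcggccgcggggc
NOTCH3, chr19:15200946-15201245, minus strand: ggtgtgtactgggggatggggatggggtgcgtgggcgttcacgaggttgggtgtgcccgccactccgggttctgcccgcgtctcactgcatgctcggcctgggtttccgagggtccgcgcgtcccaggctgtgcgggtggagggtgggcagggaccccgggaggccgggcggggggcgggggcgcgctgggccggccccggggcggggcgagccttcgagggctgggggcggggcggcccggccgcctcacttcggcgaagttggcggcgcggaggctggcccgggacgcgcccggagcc

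The HES1 window holds 2 matches in the same orientation, 8 bases apart, that begin 84 and 70 bases before the start. Of 35116 RefSeq windows of the same length, 24.0% hold at least 1 match and 3.80% at least 2. None of the other 6 windows holds these letters. The letters CACNAG, the N-box bound by HES repressors, occur 4 times in the HES1 window on either strand, 2 times in that of NOTCH1, 1 time each in those of NOTCH2 and NOTCH3, and in none of those of JAG1, JAG2 and HES6. At least 1 match to CACNAG is found in 38.0% of all windows. The letters CACGTG occur in none of the 7 windows and in 7.26% of all. A match is a description of the sequence, and binding was not measured here.

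Because METTL3 methylates adenosines in a short sequence context, the canonical mRNAs of the 10 genes were searched for GGACT, a frequent form of that context, on the mRNA strand only. Over 14591 tested genes the median was 0.929 matches per kilobase, and 91.3% had at least 1 match. HEY1, which rose, had the highest density of the 10 at 2.28 per kilobase (5 matches, 3 of them after the stop codon). DLL3 and HES1, neither past the threshold, had 2.00 and 1.90 per kilobase. NOTCH3, which fell most, had 9 matches or 1.04 per kilobase, with 7 in the coding sequence. HES6, which also fell, had 0. JAG1 and JAG2 had 0.673 and 0.520 per kilobase. The match in NOTCH3 nearest to its stop codon, 651 bases before its end, is shown with 8 bases on either side and the match in capitals.
NOTCH3 mRNA: gactcgctGGACTccccgcgg

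In GGACT density, HEY1 thus stood at the top of the 10 genes, followed by DLL3 and HES1, which were not called. HES6 stood at the bottom, and NOTCH3 lay near the middle of all tested genes (percentile 56.7). Whether density goes with a change was not tested. Methylation itself was not measured in these tables.

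By the root-mean-square distance between log2 CPM profiles centred over the 6 libraries, the genes most like NOTCH3 among 11763 compared were CDKN1A (distance 0.0429), ZMAT3 (0.0445) and PHGDH (0.0450), where the median distance was 0.482. CDKN1A and ZMAT3 are known p53 targets and PHGDH starts serine synthesis. The genes most like HEY1 were SLC36A1, an amino acid transporter (0.0870), EIF1B (0.0903) and XKR5 (0.0906), where the median was 0.439. With 2 groups of 3 libraries such a distance mostly reflects an equal difference between the groups, and it is given as a description.

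The rest of the pathway was read from 10 lists of 84 genes, of which 70 were tested. Of these, 21 rose and 10 fell in siMETTL3 (44.3% called, against 37.8% of all tested genes), with a median log2 change of 0.0777. Leaving out siMETTL3 replicate 1 or siMETTL3 replicate 2 lowered the number of falls to 6. These lists were written from general knowledge, with earlier results of these data known, and their counts are a description.

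Among the remaining ligands and factors, few were expressed. DLK1, a secreted and membrane-bound relative of the Delta-like ligands that lacks their activating domain and marks chromaffin and neuroblastic cells, was the most abundant ligand-like gene and rose from 500 ± 22.2 to 887 ± 54.9 CPM (log2 change 0.83, edgeR FDR 5.03e-07). DLK2 and DNER were not past the threshold, and DLL4 was too low to test. HEYL, a relative of HEY1, rose from 7.36 ± 1.19 to 12.8 ± 1.73 CPM (log2 change 0.78, edgeR FDR 0.00092), so that both HEY genes with more than 1 CPM were higher. HEY2 was below 1 CPM on average in both groups and not past the threshold. HES2, HES3, HES4 and HES5 were too low to test.

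A pair of genes widely used as readouts of Notch activity moved in opposite directions. NRARP, a feedback inhibitor that binds the intracellular domain, fell from 31.9 ± 3.02 to 20.2 ± 1.12 CPM (log2 change -0.65, edgeR FDR 0.000117). DTX1, a Deltex ubiquitin ligase, rose from 44.8 ± 6.27 to 69.2 ± 0.792 CPM (log2 change 0.62, edgeR FDR 9.73e-05). Both were singled out after their values were seen. With HEY1 and HEYL higher, HES1 not past the threshold and NRARP lower, the targets did not share a direction.

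The enzymes that act on the ligands and receptors changed in both directions too. Of 17 tested genes for ubiquitin ligases, endocytosis and turnover, 7 rose and 2 fell (52.9% called, against 37.8% of all tested genes). NEURL1 and NEURL1B, relatives of the fly Neuralized ligase that drives ligand endocytosis, rose from 30.1 ± 1.13 to 53.5 ± 2.65 CPM and from 28.5 ± 0.615 to 48.3 ± 2.53 CPM (log2 changes 0.83 and 0.76, edgeR FDR 1.97e-06 and 4.40e-06). MIB1, the main ligase for Notch ligands in mammals, was measured at 176 ± 8.11 and 174 ± 5.25 CPM and was not past the threshold (edgeR FDR 0.866). Of the 6 glycosylation genes, 3 fell and 1 rose (66.7% called, against 37.8%). The falls of POFUT1 (log2 change -0.20, edgeR FDR 0.0235) and MFNG (-0.28, edgeR FDR 0.0427) were lost without siMETTL3 replicate 1 and without siMETTL3 replicate 2. That of POFUT1 was also lost without siControl replicate 2, and that of MFNG without siControl replicate 1, without siMETTL3 replicate 3, with DESeq2, with the intron length offset and under 2 other scalings (upper quartile and total count). LFNG, the Fringe enzyme that tunes receptors towards Delta-like ligands, rose from 43.2 ± 5.92 to 61.3 ± 1.42 CPM (log2 change 0.50, edgeR FDR 0.000526), and POGLUT1, which adds O-glucose to the receptor, fell from 49.6 ± 3.60 to 37.1 ± 0.882 CPM (log2 change -0.42, edgeR FDR 0.000636).

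Of the 9 cleavage genes, 2 rose and 2 fell (44.4% called, near the 37.8% of all tested genes). The rise of PSEN2 (log2 change 0.29, edgeR FDR 0.0236) did not hold in every fit that left out 1 library (highest edgeR FDR 0.108). Within gamma-secretase, NCSTN, which encodes nicastrin, fell from 81.2 ± 5.09 to 58.0 ± 2.98 CPM (log2 change -0.49, edgeR FDR 9.90e-05), and APH1B rose from 8.79 ± 0.778 to 14.9 ± 0.672 CPM (log2 change 0.76, edgeR FDR 0.000187). ADAM10 was measured at 140 ± 5.11 and 132 ± 1.80 CPM and was not past the threshold (edgeR FDR 0.202). Of 8 tested genes of the nuclear complex, 4 rose and 1 fell (62.5% called, against 37.8%). Likewise, the rise of MAML2 (log2 change 0.29, edgeR FDR 0.0137) did not hold in every such fit (highest edgeR FDR 0.084), and that of RBPJ is described below. EP300, a histone acetyltransferase, rose from 134 ± 6.23 to 173 ± 5.98 CPM (log2 change 0.37, edgeR FDR 0.00024), and KAT2B, another acetyltransferase, fell from 18.7 ± 1.44 to 12.3 ± 1.38 CPM (log2 change -0.60, edgeR FDR 0.000944).

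RBPJ itself was higher by 0.20 on the log2 scale (155 ± 9.16 to 178 ± 8.77 CPM, edgeR FDR 0.0194). This call was lost without siControl replicate 2 (edgeR FDR 0.0894), without siMETTL3 replicate 1 (edgeR FDR 0.0770) and without siMETTL3 replicate 3 (edgeR FDR 0.103). It was also lost when intron length was corrected for (edgeR FDR 0.0568). Of 14 corepressors of RBPJ and cofactors of HES, 5 rose and 1 fell (42.9% called, near the 37.8% of all tested genes). SPEN, a large corepressor recruited by RBPJ, rose from 76.3 ± 2.08 to 111 ± 1.26 CPM (log2 change 0.54, edgeR FDR 7.97e-06). TLE3, a Groucho-type corepressor that HES proteins recruit, rose from 142 ± 12.1 to 203 ± 11.3 CPM (log2 change 0.52, edgeR FDR 6.34e-05).

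**Figure D4:**
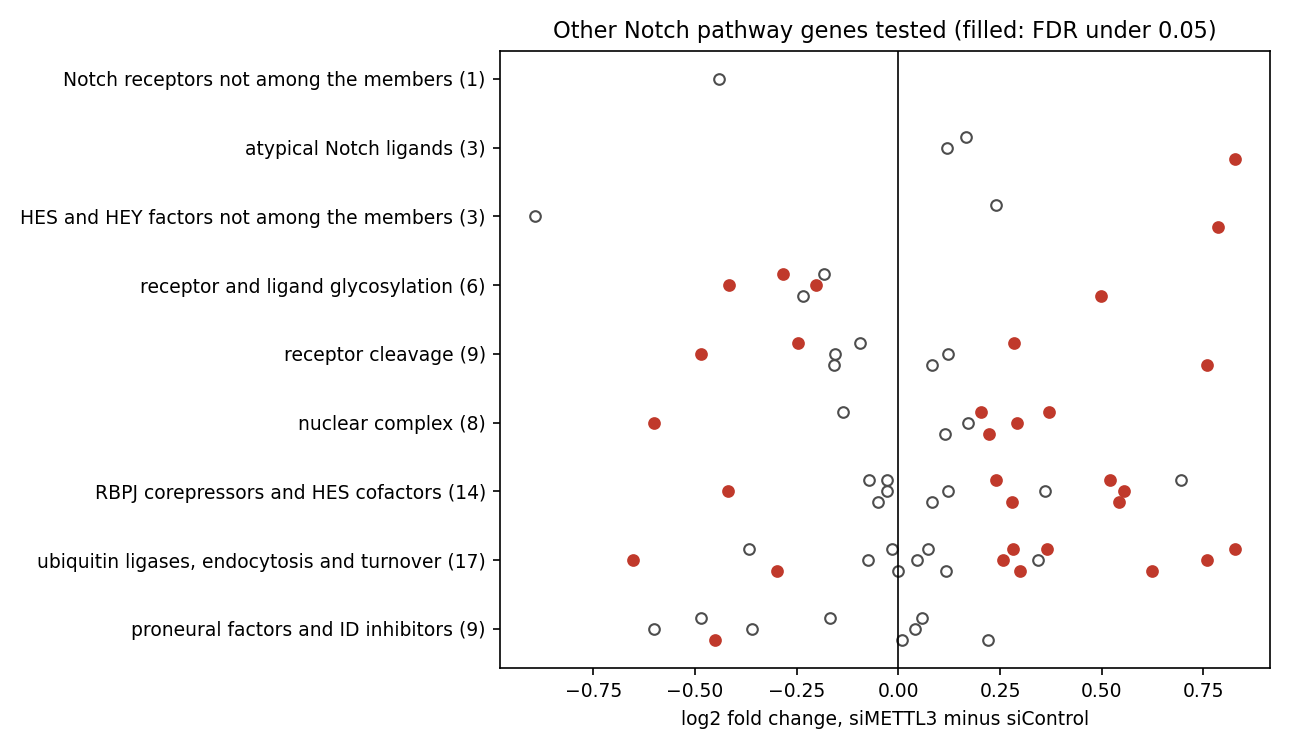
Log2 change (horizontal axis, siMETTL3 minus siControl) of the 70 tested genes of the other Notch pathway lists, 1 point per gene, with the number tested in brackets. Filled red points passed an FDR of 0.05 and lie on both sides of 0 in 5 of the 9 lists shown.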

How the data were processed

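Each deposited table holds the raw counts of 1 library. The authors counted with featureCounts 1.5.3 on protein-coding genes of GENCODE release 33, per the file headers. Reads were assigned to whole gene spans with introns and, where genes overlap, to all of them, without a strand option. Unspliced RNA and antisense transcripts can therefore add to a count. Per the submitters' processing notes, Trimmomatic 0.36, HISAT2 2.1.0 and GRCh38 were used. Coordinates are those of the tables.

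Here, genes were filtered with filterByExpr, scaled by TMM and tested with edgeR 4.0.16 in R 4.3.3 (robust quasi-likelihood F-test, 6 libraries, no covariate). FDR is the Benjamini-Hochberg value over all 15311 tested genes. The SE is |log2 fold change| over the root of the F statistic. Alternatives were other scalings and filters, DESeq2 1.42.0, limma-voom (limma 3.58.1), non-robust dispersions, a replicate block, an offset for intron length, genes without overlaps and each library left out. Lengths, mRNAs and codons came from canonical transcripts of GENCODE release 44. The members and gene lists were chosen with earlier results of these data known. Named beyond the 10 genes were METTL3, up to 2 genes per list with the smallest FDR past 0.05 and the 3 genes nearest to NOTCH3 and to HEY1; any other gene was added after its values were seen. Some listed genes are not reported here by name. In 10 simulated draws of siMETTL3 against siControl on 15311 genes, 200 genes were changed. The fit called 89.0% of genes changed 2-fold and 70.4% of those changed by the square root of 2. On average 9.42% of its calls were false, above the nominal share. Far more genes were called in the data (37.8%) than were changed in the draws, so these rates need not hold for the data. No pair of replicates was as alike as sampling alone would make it (chi-square per degree of freedom 3.05 to 16.1).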

Additional observations from a re-analysis of the deposited data

How the results depend on the processing

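NOTCH3, HES6, HEY1 and METTL3 kept their direction and their call under every alternative that was run. Over the fits that left out 1 library, the log2 change went from -0.99 to -0.94 for NOTCH3, from -0.57 to -0.39 for HES6, from 0.68 to 0.93 for HEY1 and from -0.74 to -0.69 for METTL3. In the same fits it went from 0.17 to 0.36 for JAG2, from 0.33 to 0.78 for DLL1, from -0.42 to -0.10 for JAG1, from -0.15 to -0.0055 for DLL3, from -0.64 to -0.38 for HES1 and from -0.36 to 0.21 for NOTCH2. NOTCH2 was positive without siControl replicate 3 (0.21) and without siMETTL3 replicate 2 (0.065), and the cause was not tested. The offset for intron length moved some genes outside these ranges. With it the log2 change was -0.34 for HES6 (edgeR FDR 0.022), -0.34 for HES1, -0.66 for METTL3 and -0.0022 for DLL3. It was -0.99 for NOTCH3 and 0.93 for HEY1, at the edge of their ranges. The number of members called higher went from 1 to 2, that of other pathway genes called lower from 6 to 13 and higher from 15 to 24. Of all genes, 2091 to 3178 were called higher and 2119 to 3216 lower. Restricted to the 9518 tested genes without overlaps, 1852 were called higher and 1898 lower, because fewer genes were tested. METTL3 was kept in this fit although its span overlaps TOX4, so the fit did not remove that overlap.

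The labels do not pair the libraries by replicate number. Deviations from the group means correlated at 0.0401, 0.0494 and 0.0671 within a number, all small. These lay above the -0.0642 to 0.0263 between different numbers, so a weak pairing cannot be told from none. A replicate block in the fit gave 6166 calls, against 5786 without it. With the block JAG2 (log2 change 0.25, edgeR FDR 0.0143) and DLL1 (0.57, edgeR FDR 0.0227) passed the threshold, and 3 members were called higher. The FDR of JAG2 ranged from 0.0143 to 0.339 over the alternatives, and that of DLL1 from 0.0227 to 0.333.

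HES7 changed sign without siControl replicate 1 (log2 change -0.014) and passed the threshold without siControl replicate 3 (0.62). For the other pathway genes that were followed, 10 of 262 values with all libraries became weaker and 1 stronger, and 19 of 144 with 1 library left out became weaker. NOTCH1, NOTCH2 and HES1 had at most 56 reads in any library; how much of their spread was counting error was not tested. A change of pseudocount was not run, because the tables hold counts.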

Other observations

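HES7, an oscillating repressor of the somite segmentation clock, was listed at 23.0, 33.2 and 54.8 CPM in the siControl libraries and at 41.1, 44.6 and 43.7 CPM in the siMETTL3 libraries. Its siControl values lay on both sides of the siMETTL3 values, and its log2 change was 0.24 (edgeR FDR 0.617). Without siControl replicate 3 it was 0.62 and past the threshold (edgeR FDR 0.000237). The NOTCH2 copy NOTCH2NLA was also highest of its group in siControl replicate 3, with 254 reads in this shallowest library against 105 and 173.

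Of 17 proneural factors and ID inhibitors, genes that HES repressors and Notch signalling are known to control, 9 were tested and 1 was called (11.1%, against 37.8% of all tested genes). INSM1, a zinc finger factor of neuroendocrine cells, was lower (6.12 ± 0.876 to 4.48 ± 0.354 CPM, log2 change -0.45, edgeR FDR 0.0463). It was not past the threshold with DESeq2 (FDR 0.0719), with limma-voom (FDR 0.0555), with upper quartile or total count scaling (edgeR FDR 0.0525 and 0.0595), with the intron length offset (edgeR FDR 0.205) or without any 1 of siControl replicate 2 and siMETTL3 replicates 1, 2 and 3, and its FDR went from 0.0283 to 0.212 over all alternatives. ID2 was the most abundant ID gene, at 86.2 ± 10.4 and 86.6 ± 4.81 CPM (edgeR FDR 0.948). NEUROG1 and NEUROD6 had 0 counts in all 6 libraries.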
